A study of Mus musculus with 4 samples.

Results

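The estrogen receptor gene Esr1 and the progesterone receptor gene Pgr were examined in hyperplastic mouse mammary glands together with 6 other genes. These were the co-regulators Cited1 and Greb1, the transcription factors Foxa1, Gata3 and Tbx3, and Prom1, which codes for a surface protein. The 8 genes were taken by symbol from the 25806 genes in the deposited tables, and each symbol matched 1 gene. They were chosen by measured values, because earlier results of the same knockout against control comparison were known when they were picked. Their differences between the groups are therefore given as a description, without a test. Prom1 codes for neither a receptor nor a co-regulator. It marks the surface of hormone-sensing luminal cells in the mouse gland.

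The study sequenced the RNA of mammary gland tissue. It compared female MMTV-PyMT mice that carried a knockout of miR-9 exon 1 (2 libraries) with littermate MMTV-PyMT females without the knockout (2 libraries), all on a mixed C57BL/6 background. In both groups the mouse mammary tumour virus promoter drove the polyomavirus middle T antigen, chiefly in mammary epithelium, and glands were taken while hyperplastic. The labels do not say which miR-9 gene was deleted, whether the knockout animals were homozygous, how old the mice were, at which stage of the estrous cycle they were, or whether the libraries came from different animals. P-values therefore measure only the spread between these libraries, which may be technical. These are bulk tissue samples, so fewer cells of a type and less RNA per cell cannot be told apart for any gene below.

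Estrogen and progesterone receptors are transcription factors that are switched on by binding their steroid. In the mammary gland they are made by a subset of luminal cells, which sense the hormones and pass the signal to their neighbours through secreted factors. FOXA1 and GATA3 open chromatin for the estrogen receptor and hold luminal cells in their identity, and in breast cancer cells the progesterone receptor gene and GREB1 are among the classical genes that estrogen induces. MicroRNAs such as miR-9 lower messages that carry a match to their seed, the short stretch near the 5′ end of the microRNA.

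The mature microRNA and its matches in messages of the receptor genes are shown because the knockout is of a gene of this regulator. The RefSeq sequence of miR-9-5p (GRCm38.p6) is the same from Mir9-1 on chromosome 3, Mir9-2 on chromosome 13 and Mir9-3 on chromosome 7. The seed, bases 2 to 8, is in capitals.
miR-9-5p: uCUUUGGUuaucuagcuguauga
Matches were sought in the longest annotated 3′ UTR of each gene (GENCODE M21, GRCm38). They were of 3 kinds: the 8mer ACCAAAGA, the 7mer-m8 ACCAAAG and the 7mer-A1 CCAAAGA, counted without overlap between kinds. Of the 8 genes, Pgr, Esr1 and Greb1 held at least 1 match. Pgr held an 8mer in a 3′ UTR of 3473 bases, at chr9:8966000-8966007, 862 bases after the stop codon. Esr1 held a pair of 7mer-A1 matches in a 3′ UTR of 4191 bases, at chr10:5004324-5004330 and chr10:5004401-5004407. The match is in capitals, with flanking bases of the message in lower case.
Pgr 8mer: tattgaaatttACCAAAGAagacggggggg
Esr1 first 7mer-A1: aacagtgaaatCCAAAGAaaaatctagca
Esr1 second 7mer-A1: attctggtcatCCAAAGAaaagatgctat
Greb1 held 5 matches in a 3′ UTR of 1765 bases on the minus strand, and its pair of 8mers lay at chr12:16672161-16672168 and chr12:16671594-16671601.
Greb1 first 8mer: aggactgaaaaACCAAAGAgcacatgcact
Greb1 second 8mer: aagaaagaaaaACCAAAGAgatccagggga
No match was found in the 3′ UTRs of Cited1 (76 bases), Prom1 (901 bases), Gata3 (1292 bases), Foxa1 (1398 bases) or Tbx3 (1632 bases). Among 15885 tested genes with a 3′ UTR, 24.2% held a match of any of these kinds and 5.02% held an 8mer. Among those with a 3′ UTR at least as long as the median of the 8 (1515 bases), 41.2% held a match. The 8mer share was not computed for 3′ UTRs of that length. A match describes the letters present and is not shown to be a working site.

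Deposited values had the form of read counts divided by a factor for each library, and they are called normalised read counts below. They summed to 15904798 and 16073229 in the knockout libraries and to 16378833 and 16418668 in the controls. Over the 22455 genes tested, log2 values correlated at 0.978 between the knockout libraries and at 0.973 between the controls, while control 2 stood farthest from the knockout libraries, at 0.953 and 0.960. Mature miR-9 was not measured. C130071C03Rik, a non-coding gene that spans Mir9-2, had 11.9 and 35.9 normalised read counts in knockout glands, against 37.0 and 78.7 in controls. Gm3764, which spans Mir9-1, had 3.98 and 3.88 in knockout glands, against 1.03 and 2.99 in controls. Neither checks the labels, since the deleted gene is not named. Luminal epithelial markers were abundant in all 4 libraries: the luminal keratin Krt8 had 20422 and 18175 in knockout glands, against 21205 and 22596 in controls.

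All 8 genes passed the filter on low values, which asked for a normalised read count of at least 1 in at least 2 libraries. In 8 of 8 both knockout libraries lay above both controls, a pattern that 25.5% of all tested genes showed, while 25.6% showed the opposite. The median log2 difference of the 8, knockout minus control, was 1.50, beside 0.0043 over all tested genes. The limma fit called 131 of the 22455 tested genes at an adjusted p of 0.05 (0.583%), 93 of them higher in knockout glands (0.414%) and 38 lower (0.169%). Since this contrast chose the 8 genes, nothing is read from these shares.

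**Figure D1:**
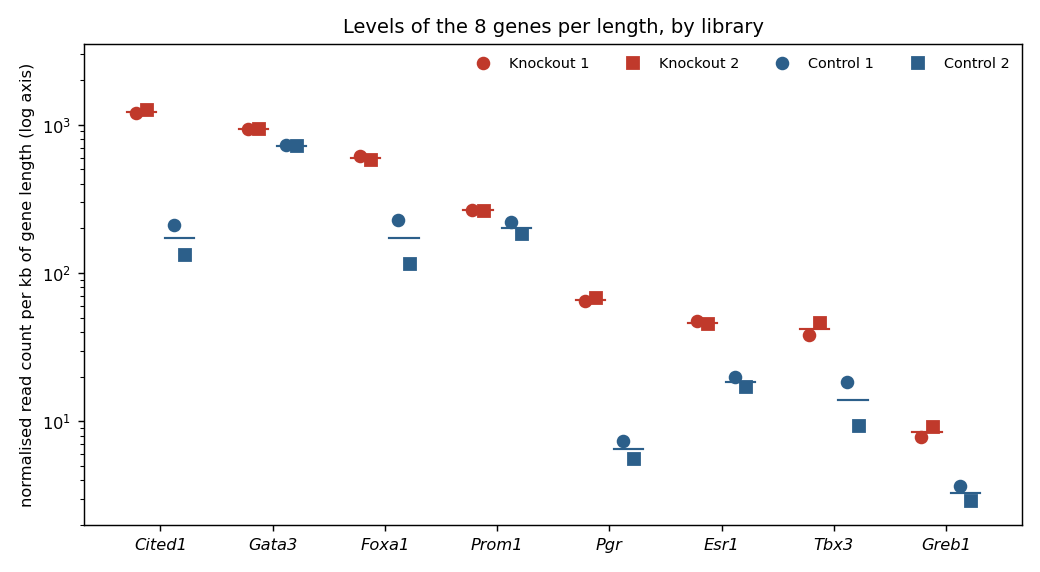
Normalised read count per kilobase of gene length (log axis) of the 8 genes in each library, with knockout libraries in red and controls in blue and a bar at each group mean. Pgr stands at 64.4 and 68.0 in knockout glands, against 7.33 and 5.60 in controls, while the groups of Gata3 and Prom1 lie close together.

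Pgr codes for the progesterone receptor, and it showed the widest gap of the 8. The gene (ENSMUSG00000031870) lies at chr9:8899833-8968611 on the plus strand of GRCm38. It had 550 and 581 normalised read counts in knockout glands, against 62.7 and 47.8 in controls. The groups did not overlap, and the lower knockout library was 8.78 times the higher control. The group means were 565 ± 21.7 in knockout glands and 55.2 ± 10.5 in controls (SD, n = 2 each), a 10.2-fold ratio, with a log2 difference of 3.34 (SE 0.23). Its 3′ UTR holds the 8mer match shown above.

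Esr1 codes for estrogen receptor alpha, the hormone receptor that acts upstream of Pgr in the gland. The gene (ENSMUSG00000019768) lies at chr10:4611593-5005614 on the plus strand. It had 648 and 618 normalised read counts in knockout glands, against 270 and 232 in controls. Both knockout libraries were above both controls, and each group held closely together. Its log2 difference was 1.33 (SE 0.16), a 2.52-fold ratio of the means. The receptors also changed places when set per length: Pgr was 1.36 and 1.50 times Esr1 per kilobase in knockout glands, against 0.371 and 0.329 times in controls.

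Cited1 codes for a transcriptional co-regulator without a DNA-binding domain that binds the estrogen receptor and the CBP and p300 coactivators. The gene (ENSMUSG00000051159) lies at chrX:102247381-102252181 on the minus strand. It had 2105 and 2192 normalised read counts in knockout glands, against 371 and 232 in controls. The knockout libraries were within a few percent of each other, whereas control 1 was 1.60 times control 2. The log2 difference was 2.87 (SE 0.21), and the means stood 7.13-fold apart.

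Greb1 codes for a chromatin-bound co-factor of the estrogen receptor, known from human breast cancer cells. The gene (ENSMUSG00000036523) lies at chr12:16670615-16800886 on the minus strand. It had few reads, with 74.6 and 87.4 normalised read counts in knockout glands, against 34.9 and 27.9 in controls. The groups did not overlap, and the log2 difference was 1.34 with the largest SE of the 8 (0.35). Gm48140, an antisense gene within its span, was at 1.03 or below in every library.

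Foxa1 codes for a forkhead factor that opens chromatin ahead of the estrogen receptor. The gene (ENSMUSG00000035451) lies at chr12:57540628-57546916 on the minus strand. It had 2032 and 1911 normalised read counts in knockout glands, against 758 and 383 in controls. Control 1 was 1.98 times control 2, so the size of the difference depends on which control is used. The log2 difference was 1.87 (SE 0.34), and it was 2.36 without control 1 and 1.38 without control 2.

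Tbx3 codes for a T-box factor needed for the mammary buds to form in the mouse embryo. The gene (ENSMUSG00000018604) lies at chr5:119670669-119684724 on the plus strand. It had 252 and 307 normalised read counts in knockout glands, against 122 and 61.8 in controls. As for Foxa1, control 1 was 1.98 times control 2, and both knockout libraries were above either. The log2 difference was 1.66 (SE 0.34), ranging from 1.18 without control 2 to 2.15 without control 1.

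Gata3 codes for a zinc-finger factor that maintains the luminal lineage, and it is also made by T cells. The gene (ENSMUSG00000015619) lies at chr2:9857078-9890034 on the minus strand. It had 3734 and 3728 normalised read counts in knockout glands, against 2896 and 2848 in controls. These are the tightest groups among the 8, yet they lie only 1.30-fold apart, with a log2 difference of 0.38 (SE 0.10). The T cell markers summed to 517 and 403 in knockout glands, against 247 and 271 in controls, and their part in the Gata3 difference was not tested. 4930412O13Rik overlaps Gata3 on the opposite strand, with 159 and 164 in knockout glands, against 124 and 77.7 in controls, and 9230102O04Rik on the same strand had 35.8 and 42.7, against 41.1 and 26.9 in controls. The strand setting of the counting is not given in the sources used here, so reads of these genes and of Gata3 may not have been kept apart.

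Prom1 codes for prominin 1, the pentaspan membrane protein also called CD133. The gene (ENSMUSG00000029086) lies at chr5:43993620-44102032 on the minus strand. It had 1906 and 1886 normalised read counts in knockout glands, against 1582 and 1312 in controls. The groups did not overlap, but the lower knockout library was only 1.19 times the higher control. The log2 difference was 0.40 (SE 0.12), and it was 0.26 without control 2 and 0.53 without control 1.

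Set per kilobase of gene length, Cited1 was the most abundant of the 8 in knockout glands, with a mean of 1225 normalised read counts per kilobase. Gata3 followed at 938, Foxa1 at 593, Prom1 at 264, Pgr at 66.2, Esr1 at 46.3, Tbx3 at 42.2 and Greb1 at 8.46. Only Esr1 and Tbx3 overlapped among neighbours in that order, at 47.4 and 45.2 for Esr1 and 38.0 and 46.3 for Tbx3. In controls the order per kilobase was Gata3 at 722, Prom1 at 202, Cited1 at 172, Foxa1 at 171, Esr1 at 18.4, Tbx3 at 13.9, Pgr at 6.46 and Greb1 at 3.28. There Prom1, Cited1 and Foxa1 overlapped with one another, and so did Esr1 and Tbx3. Per kilobase, Pgr thus stood above Esr1 and Tbx3 in knockout glands and below both in controls.

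The 8 genes fell into 3 ranges of difference. Pgr and Cited1 had log2 differences of 2.87 or more, Foxa1, Tbx3, Greb1 and Esr1 lay between 1.33 and 1.87, and Prom1 and Gata3 lay at 0.40 and 0.38. Summed over the 8, normalised read counts were 11302 and 11310 in knockout glands, against 6098 and 5144 in controls. Control 2 was below control 1 for 8 of 8 genes, as it was for 51.7% of all tested genes, with a median ratio of control 1 over control 2 of 1.28. Between the knockout libraries the 8 genes went both ways, and knockout 2 was the lower for 4 of them. Among the 4 fits that left out 1 library, the difference of each of the 8 was smallest without control 2 and largest without control 1.

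As a stand-in for luminal cell content, the geometric mean of the luminal keratins Krt8 and Krt18 was set beside these values. This mean was 18280 and 16208 in knockout glands, against 18929 and 20991 in controls. Per 1000 keratin counts, Pgr was 30.1 and 35.8 in knockout glands, against 3.31 and 2.28 in controls. Esr1 was 35.4 and 38.1 in knockout glands, against 14.3 and 11.1 in controls. On this scale 8 of 8 genes had both knockout libraries above both controls, a pattern that the choice of genes favours. The share of all tested genes with this pattern was not computed on this scale. The scale moved the median of all tested genes by 0.21 on the log2 scale. With that shift included, the log2 differences of the 8 ran from 0.59 for Gata3 to 3.55 for Pgr.

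**Figure D2:**
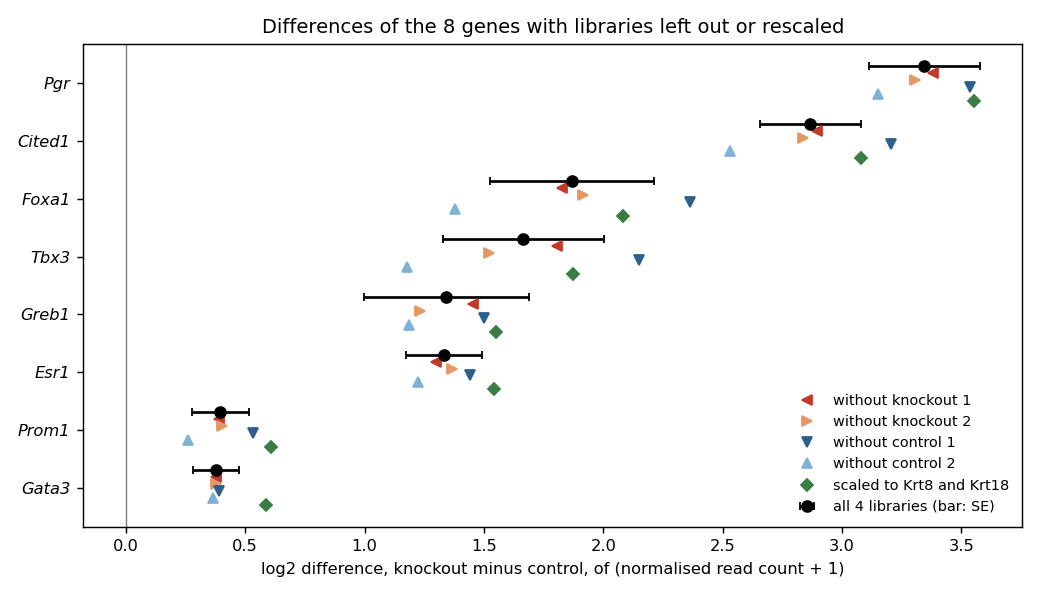
Log2 difference (knockout minus control, of normalised read count + 1) of the 8 genes, with all 4 libraries (black, bar: SE), with each library left out in turn (triangles) and scaled to Krt8 and Krt18 (diamonds). Every point is above 0, and leaving out a control moves Foxa1 between 1.38 and 2.36.

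Markers of other cell types also differed between the libraries. Basal and myoepithelial markers summed to 31538 and 36064 in knockout glands, against 19863 and 9607 in controls. Of these, 8 of 10 were higher in both knockout libraries (beside 25.5% of all tested genes). The most abundant of them was Acta2, the smooth muscle actin gene of these contractile cells, with 13198 and 14937 in knockout glands, against 7753 and 3434 in controls. The basal keratin Krt14 lay on the other side, with 873 and 895 in knockout glands, against 1313 and 1133 in controls. Krt5 had 848 and 1087 in knockout glands, against 823 and 837 in controls, and the groups of Krt17 overlapped. Adipocyte markers summed to 32425 and 10691 in knockout glands, against 14500 and 6960 in controls, so that knockout 2 lay between the controls. Fibroblast markers summed to 46000 and 30960 in knockout glands, against 33067 and 17056 in controls. B and plasma cell markers summed to 22322 and 12843 in knockout glands, against 5973 and 3540 in controls. Luminal epithelial markers went the other way, with 11 of 14 lower in both knockout libraries (beside 25.6% of all tested genes). They summed to 104441 and 93853 in knockout glands, against 108309 and 112674 in controls. Luminal progenitor and alveolar markers summed to 128252 and 189253 in knockout glands, against 203091 and 215426 in controls. Of these 11 genes, 5 were lower and 0 higher in both knockout libraries (beside 25.6% and 25.5% of all tested genes). Most of the sum was the casein gene Csn3, with 104670 and 167797 in knockout glands, against 175769 and 185462 in controls. Skeletal muscle markers summed to 63.7 and 75.8 in knockout glands, against 376 and 70.7 in controls, so control 1 stood apart.

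The lists whose sums were lowest in control 2, the library that was also lowest for the 8 genes, were those of basal cells, adipocytes, fibroblasts, endothelial cells, B and plasma cells and macrophages. What part cell content had in the differences of the 8 genes was not tested. The Krt8 and Krt18 scale rests on keratins of luminal cells as a whole, and their RNA per cell was not measured. The scale cannot show a change in the share of hormone-sensing cells among luminal cells. Of the 14 luminal markers, limma called 1: the keratin Krt19 rose, with 14371 and 12004 in knockout glands, against 7506 and 5887 in controls (log2 difference 0.98, SE 0.14, limma adjusted p = 0.0351). That call was lost without control 2 (limma adjusted p = 0.0778), without knockout 1 (0.732), without knockout 2 (0.551), with a pseudocount of 0.1 (0.0810) and with limma without its trend and robust settings (0.283). No marker of the other 10 lists was called by limma, and 35 of 94 had an unadjusted p under 0.05, a level that 18.0% of all tested genes reached.

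**Figure D3:**
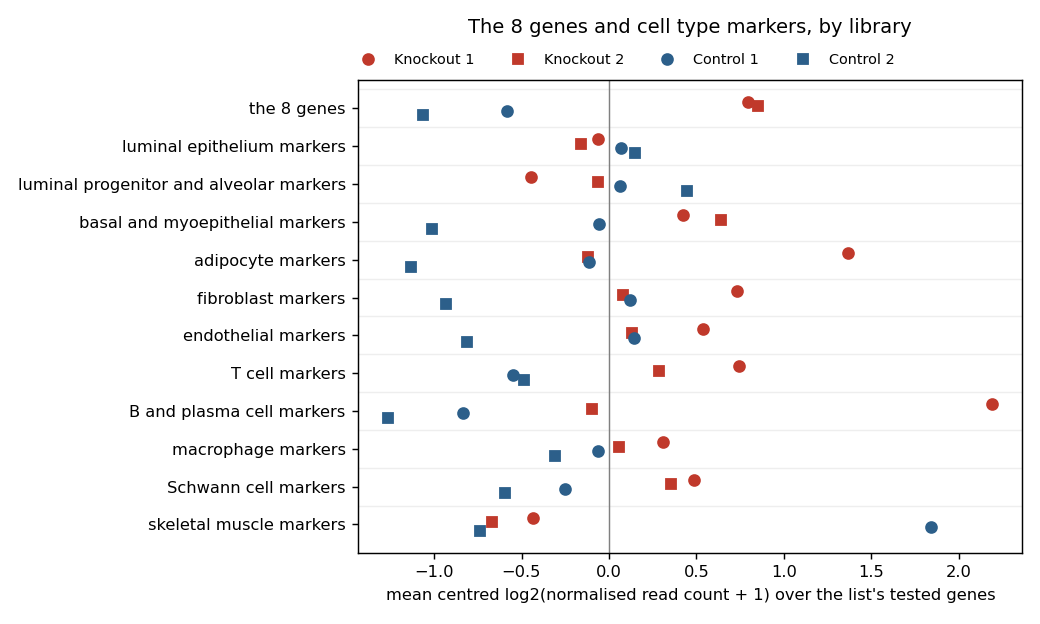
Mean over each list of log2(normalised read count + 1), centred on each gene's mean of the 4 libraries, with knockout libraries in red and controls in blue. The 8 genes separate the groups, as the choice of genes fixes, basal markers stand at 0.42 and 0.64 in knockout glands, against −0.06 and −1.01 in controls, and luminal epithelial markers at −0.06 and −0.16, against 0.07 and 0.15 in controls.

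The wider steroid receptor pathway was described with 10 lists of 155 symbols in all, of which 143 genes were tested. The lists were chosen with earlier results of these data known. Myb and Per1 rose and Adamts1 and Errfi1 fell, so 4 of the 143 passed limma's test at an adjusted p of 0.05, or 2.80%, beside 0.583% of all tested genes. An unadjusted p under 0.05 was found for 54 of the 143 (37.8%), beside 18.0% of all tested genes. The median log2 difference of the 143 was 0.07, beside 0.0043 over all tested genes. In both knockout libraries 54 were higher (37.8%, beside 25.5% of all tested genes) and 44 lower (30.8%, beside 25.6%). None of the 4 passed without knockout 1 (limma adjusted p = 0.732 for each) or without knockout 2 (0.551 to 0.587), where 1 residual degree of freedom remained, or with a pseudocount of 0.1 (0.0558 to 0.0810) or limma without its trend and robust settings (0.151 to 0.287). Scaled to Krt8 and Krt18, 19 of the 143 were called, 18 higher and 1 lower, and over all genes the split moved to 1380 higher and 117 lower.

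Among 13 other steroid receptors none was called by limma and 6 had an unadjusted p under 0.05 (46.2%, beside 18.0% of all tested genes). Their median log2 difference was 0.24, with 6 higher and 4 lower in both knockout libraries (beside 25.5% and 25.6% of all tested genes). Gper1, a membrane estrogen receptor, and Paqr8, a membrane progestin receptor, had log2 differences of −1.20 (SE 0.44) and 1.17 (SE 0.44), with limma adjusted p-values of 0.220 and 0.228. Esr2, the gene of estrogen receptor beta, named after its values were seen, was low, at 18.9 and 22.3 in knockout glands, against 8.22 and 20.9 in controls.

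Coactivators, which link bound receptors to the transcription machinery, had a median log2 difference of −0.005 over 20 genes. In both knockout libraries 6 were higher and 6 lower (beside 25.5% and 25.6% of all tested genes). None was called by limma, with 6 at an unadjusted p under 0.05 (30%, beside 18.0% of all tested genes). Cited2, a family member of Cited1, lay opposite to it, with 2659 and 2495 in knockout glands, against 3432 and 3846 in controls (log2 difference −0.50, SE 0.11, limma adjusted p = 0.0791). Ncoa4 and Carm1 had log2 differences of 0.62 and 0.46 (limma adjusted p = 0.113 and 0.156).

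Corepressors showed the narrowest range of the 10 lists bar the chaperones, from −0.21 to 0.41 on the log2 scale over 11 genes, with a median of 0.03. None was called by limma and 0 had an unadjusted p under 0.05. Nrip1, which codes for RIP140, had a log2 difference of 0.27 (SE 0.13), Tbl1xr1 of −0.21 (SE 0.11) and Phb2 of −0.18 (SE 0.10), the last of which turned to 0.03 on the Krt8 and Krt18 scale.

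Receptor chaperones, the heat shock proteins and co-chaperones that hold unliganded steroid receptors, had the lowest median of the 10 pathway lists. Over 11 genes the log2 differences ran from −0.52 to −0.10 with a median of −0.33, and 9 of 11 were lower in both knockout libraries, beside 25.6% of all tested genes. None was called by limma, and 8 had an unadjusted p under 0.05 (72.7%, beside 18.0% of all tested genes), a count that was 0 on the Krt8 and Krt18 scale. The median of the list was −0.41 without control 1, −0.23 without control 2, −0.31 without knockout 1 and −0.37 without knockout 2. Fkbp5, a co-chaperone that glucocorticoids and progestins induce, had 936 and 879 in knockout glands, against 1353 and 1249 in controls (log2 difference −0.52, SE 0.11, limma adjusted p = 0.0796). Hspa8 and Stip1 had log2 differences of −0.44 and −0.41 (limma adjusted p = 0.101 and 0.118). On the Krt8 and Krt18 scale the median of the list was −0.11, where the median of all genes was 0.21.

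**Figure D4:**
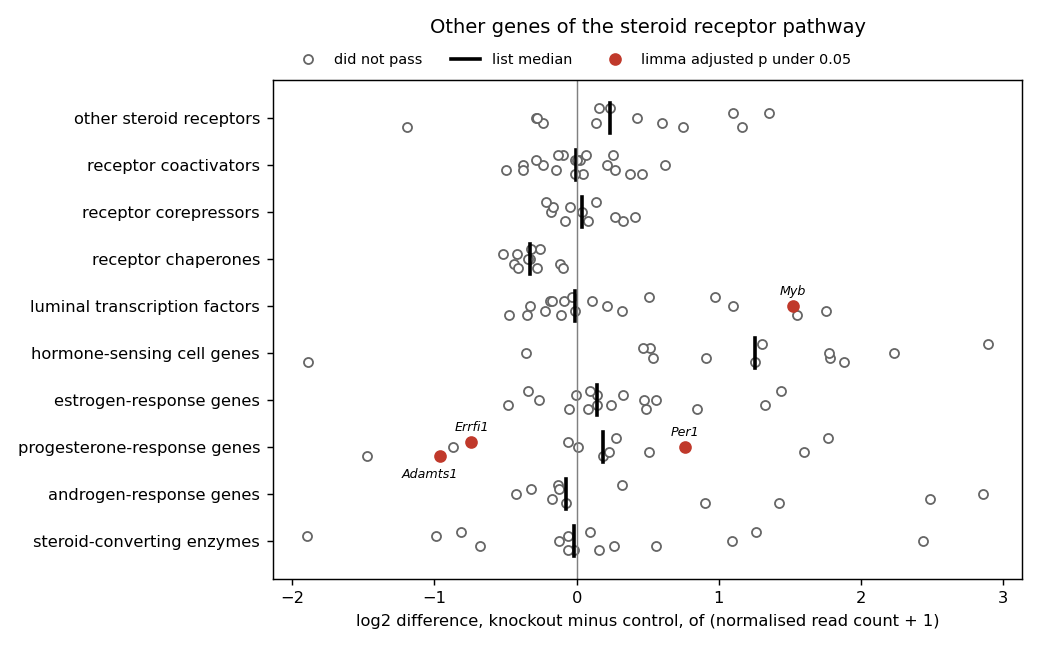
Log2 difference (knockout minus control, of normalised read count + 1) of each tested gene of the 10 pathway lists, with the list median as a bar. Filled points passed limma's test: Myb at 1.52 and Per1 at 0.76 above 0, Adamts1 at −0.96 and Errfi1 at −0.74 below it.

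Luminal transcription factors other than the 8 genes had a median log2 difference of −0.01 over 19 genes. In both knockout libraries 6 were higher and 6 lower (beside 25.5% and 25.6% of all tested genes). An unadjusted p under 0.05 was found for 6 by limma (31.6%, beside 18.0% of all tested genes). Myb, a proto-oncogene that estrogen induces in human breast cancer cells, was the gene called. It had 388 and 322 in knockout glands, against 123 and 122 in controls (log2 difference 1.52, SE 0.21, limma adjusted p = 0.0270). Tbx2, the closest paralog of Tbx3, had 292 and 316 in knockout glands, against 126 and 83.7 in controls (log2 difference 1.55, SE 0.26, limma adjusted p = 0.0529). Msx2, a homeobox gene of the developing gland, had 227 and 241 in knockout glands, against 103 and 45.8 in controls (log2 difference 1.75, SE 0.38, limma adjusted p = 0.0805).

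Genes of hormone-sensing cells had the largest median of the 10 pathway lists, 1.26 on the log2 scale over 13 genes. Among the marker lists, those of B and plasma cells and of basal and myoepithelial cells had larger medians, 1.94 and 1.39. In both knockout libraries 10 of the 13 hormone-sensing cell genes were higher and 2 lower (beside 25.5% and 25.6% of all tested genes). None was called by limma, and 10 had an unadjusted p under 0.05 (76.9%, beside 18.0% of all tested genes). On the Krt8 and Krt18 scale 4 were called, all higher, beside 1380 called higher of all 22455 tested genes. With limma without its trend and robust settings 0 were called, as over all genes. The median of the list was 1.56 without control 1, 0.89 without control 2, 1.14 without knockout 1 and 1.29 without knockout 2. Prlr, the prolactin receptor gene, had 4032 and 4976 in knockout glands, against 2410 and 1460 in controls (log2 difference 1.26, SE 0.26, limma adjusted p = 0.108). Areg codes for amphiregulin, the EGF-like factor through which the estrogen receptor acts in duct growth. It had 75.6 and 53.4 in knockout glands, against 14.4 and 21.9 in controls (log2 difference 1.78, SE 0.42, limma adjusted p = 0.0975). Igfbp5, an IGF-binding protein gene, had a log2 difference of 0.52 (SE 0.12, limma adjusted p = 0.0862).

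The paracrine signals that progesterone induces in these cells, named after their values were seen, were unevenly measured. Wnt4 had 376 and 249 in knockout glands, against 151 and 44.8 in controls (limma adjusted p = 0.214). Tnfsf11, which codes for RANKL, was near the limit of detection, with 0.995 and 2.91 in knockout glands, against 3.08 and 0 in controls. Calca, the calcitonin gene, had 7.96 and 9.71 in knockout glands, against 3.08 and 0.996 in controls.

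Estrogen-response genes were mixed. Of 17 tested, 6 were higher and 3 lower in both knockout libraries (beside 25.5% and 25.6% of all tested genes). None was called by limma, with 2 at an unadjusted p under 0.05 (11.8%, beside 18.0% of all tested genes). Their median log2 difference was 0.15. The mucin gene Muc1, the IGF-binding protein gene Igfbp4 and the lactoferrin gene Ltf had log2 differences of −0.48, 1.44 and 0.49 (limma adjusted p = 0.111, 0.154 and 0.280).

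Progesterone-response genes gave calls in both directions: 1 of 13 rose and 2 fell (beside 0.414% and 0.169% of all tested genes). Their median log2 difference was 0.19, and 7 had an unadjusted p under 0.05 (53.8%, beside 18.0% of all tested genes). Per1, a circadian clock gene, had 1586 and 1511 in knockout glands, against 941 and 884 in controls (log2 difference 0.76, SE 0.11, limma adjusted p = 0.0300). It did not pass without control 2 (0.0525). Adamts1, a matrix protease gene that progesterone receptor induces in the ovary, had 521 and 526 in knockout glands, against 975 and 1066 in controls (log2 difference −0.96, SE 0.12, limma adjusted p = 0.0228). Errfi1 codes for an inhibitor of the EGF receptor, also called MIG6. It had 2215 and 2109 in knockout glands, against 3925 and 3320 in controls (log2 difference −0.74, SE 0.11, limma adjusted p = 0.0415), and it did not pass on the Krt8 and Krt18 scale (0.0714).

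None of the 11 androgen-response genes or the 15 steroid-converting enzymes was called by limma, with 4 and 5 at an unadjusted p under 0.05 (36.4% and 33.3%, beside 18.0% of all tested genes), and their median log2 differences were −0.07 and −0.02. Tmprss2, a serine protease gene known as an androgen target in the prostate, had 3556 and 2726 in knockout glands, against 1412 and 954 in controls (log2 difference 1.42, SE 0.21, limma adjusted p = 0.0562). Pip, the prolactin-induced protein gene, had a log2 difference of 2.86 (SE 0.55, limma adjusted p = 0.0660). It had 188 and 64.1 in knockout glands, against 11.3 and 17.9 in controls, so the knockout libraries lay far apart. The steroid 5-alpha reductase genes Srd5a1 and Srd5a2 lay on opposite sides, at −0.68 and 2.44, and Hsd11b2, which inactivates glucocorticoids, at −1.90 (limma adjusted p = 0.144, 0.158 and 0.217). Srd5a2 and Hsd11b2 had few reads. Srd5a2 had 6.96 and 21.4 in knockout glands, against 1.03 and 1.99 in controls. Hsd11b2 had 0.995 and 1.94 in knockout glands, against 7.19 and 8.97 in controls. On the Krt8 and Krt18 scale the medians that lay just under 0 became 0.21 for coactivators, 0.20 for luminal transcription factors, 0.14 for androgen-response genes and 0.19 for enzymes, none above the shift of 0.21 in all genes.

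Genes with the pattern most like Pgr over the 4 libraries were sought among 11534 genes with a mean normalised read count of at least 81.0, by the root mean square difference of centred log2 values. The nearest was Slc5a5, the sodium-iodide symporter gene, at a distance of 0.157. It had 899 and 798 in knockout glands, against 113 and 86.7 in controls. Gjc3 (0.217), Cxcl15 (0.229), Ptn (0.242), Prol1 (0.254), Fxyd2 (0.291), Trpc6 (0.322) and Cmtm5 (0.331) followed, and Cited1 was nearest among the 8 genes, at 0.260. With 4 libraries in 2 groups, genes that separate the groups to the same degree rank high by this measure.

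The mean pattern of all 8 genes was nearest to Ctnnd2, the delta-catenin gene, at 0.0486. It had 191 and 199 in knockout glands, against 79.1 and 53.8 in controls. Tbx2 was second at 0.0640, then Crispld1, Steap2, Atp6v0e2, Dmpk, Zfp385a and Nebl, at 0.0897 to 0.113. Of the 8 genes themselves, Greb1, Esr1, Tbx3 and Foxa1 lay 0.174 to 0.216 from their mean. Cited1, Prom1, Gata3 and Pgr lay 0.613 to 0.848 from it.

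**Figure D5:**
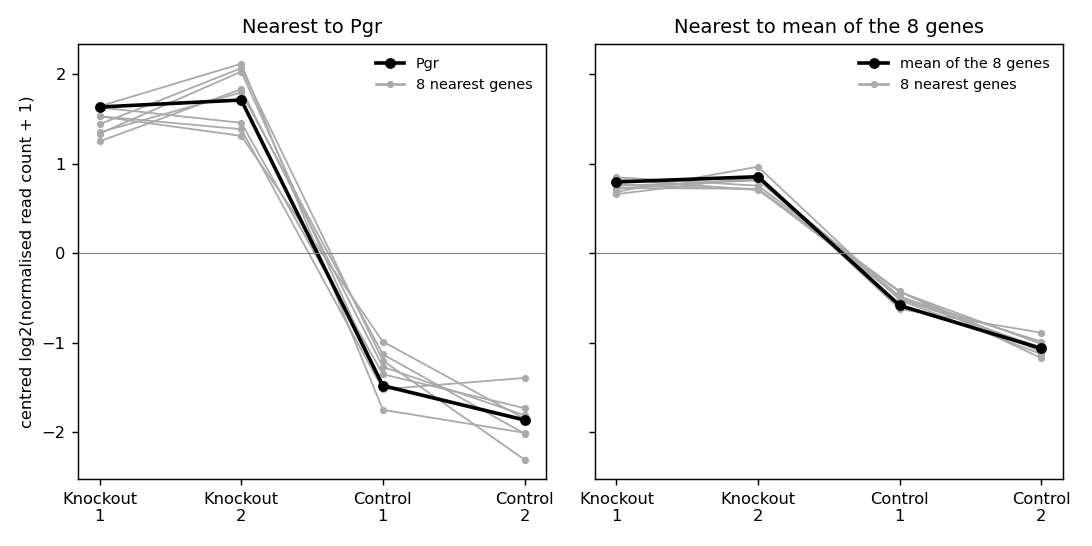
Centred log2(normalised read count + 1) in each library for Pgr (left) and for the mean of the 8 genes (right), in black, with the 8 nearest genes outside the 8 in grey. The nearest genes, chosen for this likeness, follow Pgr within root mean square distances of 0.157 to 0.331 and the mean within 0.0486 to 0.113.

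The genomic neighbours of the 8 genes were described as well, taking the nearest tested protein-coding gene on each side. Of these 16 genes, 8 were higher in both knockout libraries (50%, beside 25.5% of all tested genes), 3 were lower (18.8%, beside 25.6%) and 5 overlapped. Limma called 2 (12.5%, beside 0.583%), both beside Pgr. Gm16485 lies 3.18 kb beyond Pgr on the same strand, at chr9:8971791-8975773. It had 145 and 117 in knockout glands, against 11.3 and 11.0 in controls (log2 difference 3.43, SE 0.37, limma adjusted p = 0.0154). Whether its reads come from transcripts that run on from Pgr was not tested. Trpc6, a cation channel gene, lies 219 kb before Pgr on the same strand, at chr9:8544142-8680741. It had 175 and 151 in knockout glands, against 29.8 and 15.9 in controls (log2 difference 2.84, SE 0.39, limma adjusted p = 0.0268). Beside Foxa1, Ttc6 had 210 and 269 in knockout glands, against 103 and 80.7 in controls (log2 difference 1.37, SE 0.26, limma adjusted p = 0.0646). The calls of Gm16485 and Trpc6 were lost without knockout 1 (0.732) and without knockout 2 (0.551 for Gm16485 and 0.577 for Trpc6), and with limma without its trend and robust settings (0.108 and 0.174). That of Trpc6 was also lost with a pseudocount of 0.1 (0.0645).

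Promoter windows of 250 bases before to 50 after the annotated start (RefSeq, GRCm38.p6) were matched for 7 of the 8 genes, 12 windows in all. Both strands were searched for the estrogen receptor half-site GGTCA, the palindrome GGTCANNNTGACC, which contains that half-site, the progesterone receptor half-site AGAACA, the forkhead site TGTTTAC, the GATA site AGATAA and the T-box half-site GGTGTGA. Among 17437 windows of all genes these were found in 39.0%, 0.0287%, 14.0%, 2.80%, 7.44% and 3.65%, in the order just given. The Pgr window at chr9:8899583-8899882 held none of them, which says only that these letters are not in that window. The first Esr1 window and the Foxa1 window are shown because each holds the half-site of the estrogen receptor, and that of Foxa1 also a forkhead site. The matches are in capitals, at bases 16 to 20 for Esr1 (chr10:4611739-4612038, plus strand). In Foxa1 (chr12:57546062-57546361, minus strand) they lie at −210 to −206 for the half-site and at −141 to −135 for the forkhead site, read on the opposite strand as GTAAACA.
Esr1 promoter: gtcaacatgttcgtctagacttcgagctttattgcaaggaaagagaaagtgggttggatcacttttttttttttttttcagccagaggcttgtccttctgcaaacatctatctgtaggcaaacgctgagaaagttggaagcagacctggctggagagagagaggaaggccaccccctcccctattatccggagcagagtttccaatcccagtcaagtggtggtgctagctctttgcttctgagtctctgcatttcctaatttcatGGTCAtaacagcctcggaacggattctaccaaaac
Foxa1 promoter: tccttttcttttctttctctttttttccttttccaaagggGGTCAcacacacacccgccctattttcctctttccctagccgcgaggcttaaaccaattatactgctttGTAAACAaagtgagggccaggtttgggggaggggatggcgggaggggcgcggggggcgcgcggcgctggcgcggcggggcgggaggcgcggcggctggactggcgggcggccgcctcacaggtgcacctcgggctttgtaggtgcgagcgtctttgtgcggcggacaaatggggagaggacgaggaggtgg
Half-sites of the estrogen receptor were also in windows of Gata3, Prom1, Greb1 and Cited1. With a share of 39.0% among all windows, this is a common match. That share is per window, and some of these genes have more than 1 window. A Prom1 window also held the progesterone receptor half-site, at −21 to −16, a match that 14.0% of all windows held.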

How the data were processed

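The authors deposited 1 signal value per gene and library. In each library 100% of the values are whole multiples of 1 step near 1 (tolerance 1e-06), as read counts divided by a library's factor would be. The submitters' processing notes name Bowtie 0.12.2 and 3 builds (hg38, mm10 and GRCm38), none with a role. How reads were counted, with which strand setting, and how the factors were set is not given in the sources used here. Per the labels, RNA was extracted with a Trizol reagent and libraries were made with an Illumina TruSeq kit. Of the listed genes, 25795 were found in GENCODE M21 (GRCm38), 97.2% with the same coordinates.

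The general rule for recovering whole reads refuses steps this close to 1, so no count model was run. After adding a pseudocount of 1 and taking log2, limma 3.58.1 (R 4.3.3) was fitted with genotype alone, with robust and trend moderation and 2 residual degrees of freedom per gene. P-values were adjusted by Benjamini-Hochberg over all 22455 tested genes, with a threshold of 0.05. For 2 against 2 libraries the smallest two-sided p of an exact permutation test is 0.33. Fold changes on this scale are relative to the typical gene and understate changes of low genes. The fit was tested on simulated data.

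The 8 genes, the 10 pathway lists and the 11 marker lists (111 symbols) were chosen with earlier results of these data known. Named genes were the 8, the called genes and the 3 with the smallest unadjusted p of each list, Krt8, Krt18 and Krt19, and the 8 nearest genes to Pgr and to the mean of the 8. Some genes that this rule names are not reported here. The genomic neighbours and any other name were chosen after values were seen. Alternatives were pseudocounts of 0.1 and 5, no filter, quantile normalisation, scaling to Krt8 and Krt18, each library left out, a replicate block, and limma without its trend and robust settings. Sequences were read from RefSeq tables (GRCm38.p6) and GENCODE M21 transcripts with Python 3.11.15.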

Additional observations from a re-analysis of the deposited data

How the results depend on the processing

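All 8 genes were higher in knockout glands under each of the 11 alternatives, a direction that the choice of genes fixes. The limma count of called genes, 131 of all tested and 4 of the pathway lists with the settings used above, moved with most of them. It was 33 and 0 with a pseudocount of 0.1, 258 and 7 with a pseudocount of 5, 332 and 9 without the filter, and 257 over all genes with quantile normalisation. Scaled to Krt8 and Krt18 it was 1497 and 19, and without limma's trend and robust settings 0 and 0, where 2983 and 31 genes had an unadjusted p under 0.05. With libraries left out it ranged from 0 to 2361 over all genes and from 0 to 36 in the lists, with the highest counts without control 1. The counts of 0 came without knockout 1 and without knockout 2 (1384 and 1805 genes at an unadjusted p under 0.05), where 1 knockout library is assumed to vary like the controls. The labels share replicate numbers without saying that they pair libraries. Deviations of same-numbered libraries correlated at 0.118 across genes, and the fit with the replicate block called 367 genes over all and 11 in the lists. With the pseudocount of 0.1, 58 pathway genes had an unadjusted p under 0.05. On the keratin scale Phb2 turned to 0.035, and so did Krt8 (0.027), 1 of the genes that set the scale. The causes of these moves were not tested. With 2 libraries a group, control 2 or control 1 alone can set the size of a difference, and low genes such as Tnfsf11 are near the limit of detection.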
